A study of Mus musculus with 7 samples.

Results

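The collagen genes were followed in lamina propria macrophages of mice with colitis, with and without cre recombinase in the LysM locus. Members were all probe sets with exactly 1 annotated symbol of the form Col, number, a, number. There were 47 such probe sets for 44 genes, out of 22180 genes tested, and for each gene the probe set with the highest mean over the 7 arrays was kept. The 44 genes fall into 11 fibrillar collagens, 6 basement membrane collagens (type IV) and 27 other collagens. All mice were Rictorfl/fl, so that Rictor, a subunit of the kinase complex mTORC2, could be deleted. In 4 samples they also carried 1 cre allele in LysM (Rictorfl/fl LysM+/cre), which is active in myeloid cells, and the 3 control samples had none (Rictorfl/fl LysM+/+). All had colitis from dextran sulphate sodium (DSS) (5% in the water, 5 days) and were then kept on plain water for 3 days. The cells were sorted as CD45+ CD11b+ CD64+ MHCII+ Ly6C-, and each sample was hybridised to 1 Affymetrix Mouse Gene 2.0 ST array. No group carried cre without floxed Rictor, so effects of cre itself and of Rictor loss cannot be told apart, and the labels do not give the mice's age or whether mice were pooled.

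Collagens are built from 3 chains wound around each other in a triple helix, with glycine packed along its axis. Fibrillar collagens, chiefly types I, III and V in the gut wall, form the tensile fibres of connective tissue, while type IV collagen forms the sheet-like network of basement membranes under epithelium and around vessels. The other types coat fibrils (FACIT collagens), form beaded filaments (type VI), sit in basement membrane zones (the multiplexins XV and XVIII), span the plasma membrane, or anchor and mesh other networks. Fibroblasts and smooth muscle cells are the chief source of interstitial collagens in the colon, and macrophages are known rather for taking up and degrading collagen.

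Upstream sequences are shown for 4 members: Col1a2 and Col3a1, fibrillar genes whose signal was highest on the same array, and Col6a1 and Col15a1, which had the largest negative differences. Each is the 250 bases before the gene's start in RefSeq (GRCm38.p6), 5′ to 3′ on the gene's strand. Capitals mark 3 motifs searched on both strands, the CCAAT box (CCAAT), the TATA box (TATAAA) and the GC box (GGGCGG).
Col1a2, chr6:4505368-4505617, plus strand: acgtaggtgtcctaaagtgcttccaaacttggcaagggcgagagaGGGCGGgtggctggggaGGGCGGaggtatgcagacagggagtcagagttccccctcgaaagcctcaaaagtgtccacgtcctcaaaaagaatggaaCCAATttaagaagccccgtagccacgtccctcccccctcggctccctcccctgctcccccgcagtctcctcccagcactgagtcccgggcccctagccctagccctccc
Col3a1, chr1:45311288-45311537, plus strand: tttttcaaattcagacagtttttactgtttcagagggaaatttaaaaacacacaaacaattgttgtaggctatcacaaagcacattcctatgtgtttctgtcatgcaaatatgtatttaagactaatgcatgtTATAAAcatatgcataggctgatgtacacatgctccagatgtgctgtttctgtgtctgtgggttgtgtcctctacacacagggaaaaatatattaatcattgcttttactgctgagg
Col6a1, chr10:76726045-76726294, minus strand: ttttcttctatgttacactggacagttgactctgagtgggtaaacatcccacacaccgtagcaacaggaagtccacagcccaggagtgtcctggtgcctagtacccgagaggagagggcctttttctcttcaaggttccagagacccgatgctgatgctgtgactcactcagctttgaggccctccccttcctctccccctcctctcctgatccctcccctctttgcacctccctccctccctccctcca
Col15a1, chr4:47207762-47208011, plus strand: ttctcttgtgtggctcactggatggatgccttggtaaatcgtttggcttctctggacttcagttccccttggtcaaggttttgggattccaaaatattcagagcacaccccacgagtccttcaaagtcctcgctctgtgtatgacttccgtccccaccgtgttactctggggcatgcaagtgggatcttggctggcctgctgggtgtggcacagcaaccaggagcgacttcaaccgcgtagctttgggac

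Col1a2 held 2 GC boxes and a CCAAT box, the type of element bound by the factor NF-Y. Col3a1 held the TATAAA string, 117 bases before its start, and neither of the other motifs. Motifs were matched as strings at any position in the window, and whether a match acts as a promoter element was not tested. Col6a1 and Col15a1 held none of the 3 motifs in this window. In the RefSeq table, windows were found for 35 of the 44 collagens, of which 21 (60.0%) had a GC box, 12 (34.3%) a CCAAT box and 5 (14.3%) a TATA box. Of 27025 gene windows of the same length, 32.9% had a GC box, 34.5% a CCAAT box, and 3504 a TATA box. Col4a1 and Col4a2, the main type IV genes, lie head to head on opposite strands, with start sites 21 bases apart in the same annotation. The Col4a1 start (11312826, minus strand) lies past the Col4a2 start (11312805, plus strand), so the annotated genes overlap there. The pair is compared array by array further on. The CCAAT box of the Col4a2 window lies in the following 30 bases, which are downstream of the Col4a1 start. Whether it acts on either gene was not tested.
Col4a2, chr8:11312765-11312794, plus strand: ggagctccCCAATttgttggcgctgccccc

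The deposited values are log2 intensities, and array medians lay between 5.16 and 5.22. Correlations of whole profiles were 0.968 to 0.977 for arrays of different genotype and 0.972 to 0.982 for arrays of the same genotype. All 10 macrophage and gate markers were measured, and the gate gene Ptprc (CD45) lay at 11.01 to 11.35 on LysM+/cre arrays and at 10.85 to 11.01 on LysM+/+ arrays. The CD64 gene Fcgr1 was 0.97 and the CD11b gene Itgam 0.53 higher with cre at an unadjusted p under 0.05, and Cd68 was 0.20 lower. Rictor itself did not separate the genotypes (log2 difference 0.12 ± 0.13 SE, limma adjusted p = 0.749), and whether its probe set reads the floxed exons is not known, so it checks neither the deletion nor the labels. With 7 arrays the number of arrays limits the precision, and p-values measure the spread between these samples.

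No collagen gene separated the genotypes past the spread between arrays. None of the 44 passed an adjusted p of 0.05 in limma (smallest 0.423), nor did any of all 22180 genes, and under a per-gene variance without moderation the counts were 0 and 2. At an unadjusted p under 0.05, 1 collagen, Col6a1, was lower and 0 were higher, while 4.93% of all genes were lower and 6.56% higher by that rule. Differences, always LysM+/cre minus LysM+/+ in log2 intensity, ran from -0.45 for Col15a1 to 0.17 for Col3a1, and 30 of 44 lay below 0, against 48.6% of all genes. In 0 collagens did all arrays of a genotype lie beyond all of the other, against 8.79% of all genes. In 8 collagens the ranges met only at a shared value. Such meetings were not counted over all genes, so the 8 cannot be called a trait of collagens. No collagen differed 1.5-fold, as did 3.82% of all genes. For 40 of 44 collagens the 95% interval of the difference lay inside 1.5-fold either way, which held for 74.8% of all genes. The exceptions were Col3a1 (-0.27 to 0.60), Col15a1 (-0.93 to 0.029), Col6a1 (-0.69 to -0.020) and Col14a1 (-0.95 to 0.54). All 11 collagens that lay above the array median on fewer than 3 arrays were among the 40. In 21 of 44 collagens at least 3 arrays shared a value. Dim or tied values can narrow an interval, so the count does not show that collagen expression was equal.

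**Figure D1:**
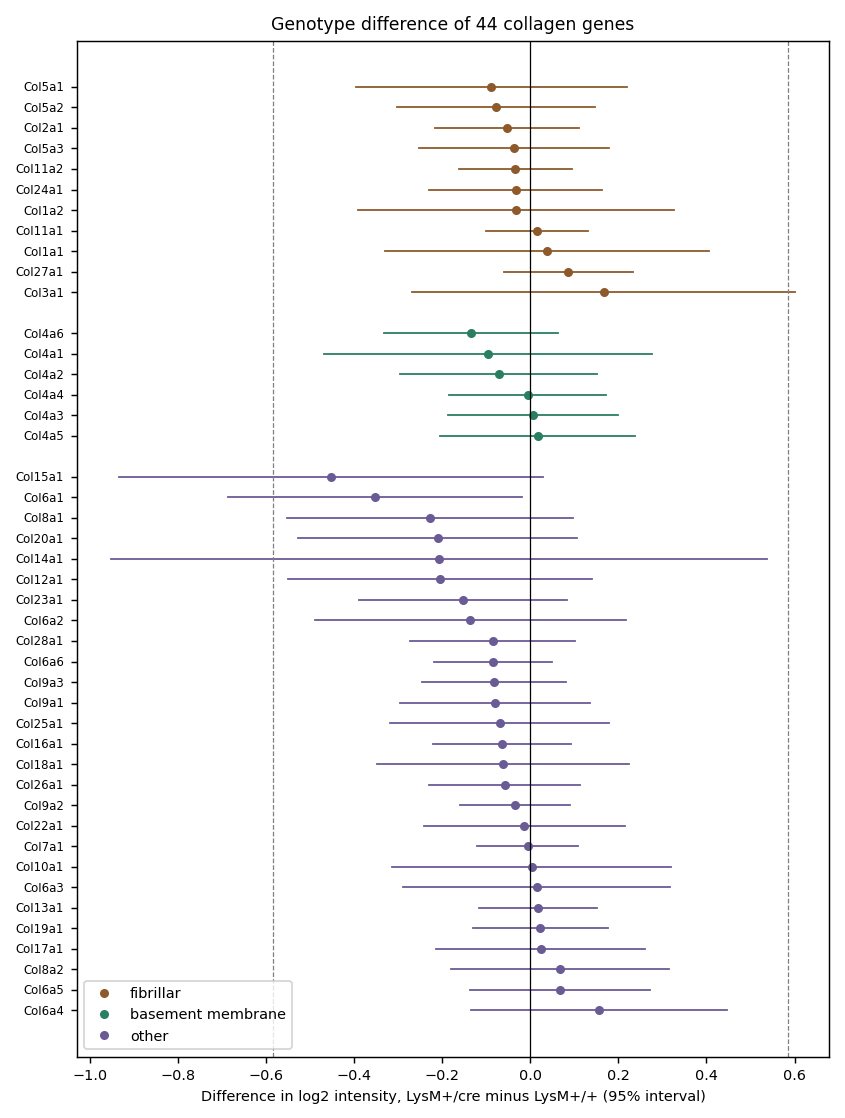
Difference in log2 intensity, LysM+/cre minus LysM+/+, of each of the 44 collagen genes, grouped by class and sorted within it. Points are limma estimates, bars are 95% intervals (4 against 3 arrays), and dashed lines mark 1.5-fold. All points lie inside the dashed lines and 40 of the intervals do too.

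The 3 classes had medians close to 0. The median difference was -0.034 for fibrillar collagens with 7 of 11 below 0, -0.039 for basement membrane collagens with 4 of 6 below 0, and -0.064 for the other collagens with 19 of 27 below 0. Over all genes the median was 0.0044. When single arrays were left out the fibrillar median lay between -0.045 and 0.023. The basement membrane median then lay between -0.079 and 0.016, so both took either sign. The median of the other collagens stayed below 0, at -0.077 to -0.042, as did that of all 44 collagens, at -0.0595 to -0.0299. With a fibroblast score as covariate the fibrillar and basement membrane medians were 0.036 and 0.020, and that of the other collagens was -0.092. That score did not overlap between the genotypes, so fits with it separate genotype from score only by extrapolation. The fibrillar median was above 0 without LysM+/+ array 1 or LysM+/cre array 3, and the basement membrane median without LysM+/+ array 1 or LysM+/cre array 1. Averaged over its genes, the mean deviation from each gene's 7-array mean was -0.093, 0.11, -0.077 and 0.054 for fibrillar collagens on LysM+/cre arrays 1 to 4, against 0.065, 0.00 and -0.057 on LysM+/+ arrays 1 to 3. The genotypes therefore overlapped fully in that class, and the LysM+/cre arrays fell into a high pair (2 and 4) and a low pair (1 and 3). Basement membrane collagens gave -0.11, -0.0031, 0.052 and -0.020 on LysM+/cre arrays, against 0.097, -0.0088 and -0.0064 on LysM+/+ arrays, again with overlap. The other collagens gave -0.082, -0.012, -0.017 and -0.030 on LysM+/cre arrays, against 0.046, 0.045 and 0.051 on LysM+/+ arrays, so that all 4 LysM+/cre values lay below all 3 controls by a small margin.

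Among fibrillar genes, Col1a1, a chain of type I collagen, the main fibre of scar and gut wall, had 6.84, 7.30, 6.80 and 7.33 on LysM+/cre arrays, against 7.12, 6.99 and 6.99 on LysM+/+ arrays. The controls lay between the high and the low LysM+/cre pair, and the difference was 0.04 ± 0.155 (SE, limma adjusted p = 0.939). Its partner chain Col1a2 had 6.16, 6.67, 6.23 and 6.59 on LysM+/cre arrays, against 6.61, 6.30 and 6.42 on LysM+/+ arrays. The same LysM+/cre arrays were high and low as for Col1a1, and the difference was -0.03 ± 0.15 (SE, adjusted p = 0.948). Col1a2 has a second probe set, which also showed no separation (0.0075).

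Col3a1, the type III collagen of pliable tissue and of early wound matrix, had 6.69, 7.40, 6.88 and 6.96 on LysM+/cre arrays, against 7.04, 6.81 and 6.60 on LysM+/+ arrays. It had the largest positive difference of the family, 0.17 ± 0.18 (SE, adjusted p = 0.741), and its highest value fell on LysM+/cre array 2. Without that array the difference was 0.027, below the 0.15 of Col6a4, without LysM+/+ array 3 it was 0.056, and without LysM+/+ array 1 0.28. Col5a1, a type V chain that starts fibril assembly and sets fibril width, had 6.38, 6.73, 6.16 and 6.53 on LysM+/cre arrays, against 6.57, 6.53 and 6.52 on LysM+/+ arrays. The controls were nearly equal, with an SD of 0.026, while the LysM+/cre arrays spread with an SD of 0.24, so that the difference of -0.09 ± 0.13 (SE, adjusted p = 0.811) sits inside that spread. Its second probe set differed by 0.05. Col27a1, a minor fibrillar chain of cartilage, had 6.61, 6.58, 6.57 and 6.57 on LysM+/cre arrays, against 6.53, 6.57 and 6.39 on LysM+/+ arrays. The difference was 0.09 ± 0.062 (SE, adjusted p = 0.614). The remaining fibrillar genes, Col2a1, Col5a2, Col5a3, Col11a1, Col11a2 and Col24a1, differed by -0.08 to 0.02.

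**Figure D2:**
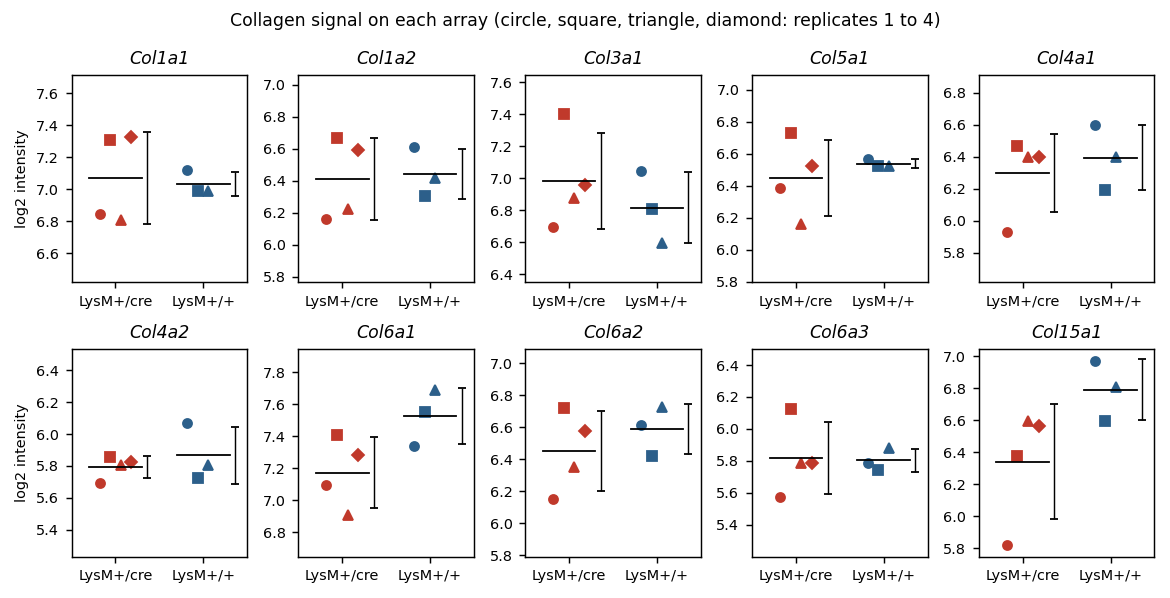
Log2 intensity of 10 collagen genes on each array, LysM+/cre left of LysM+/+ in each panel. Markers are replicates 1 to 4 (circle, square, triangle, diamond), lines are means, bars are ± 1 SD (n = 4 and n = 3), and every panel spans the same range of log2 units. LysM+/cre arrays 2 and 4 lie above arrays 1 and 3 for Col1a1, Col1a2, Col3a1, Col5a1, Col4a2, Col6a1 and Col6a2, by little for Col3a1 and Col4a2.

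Of the type IV genes, Col4a1 had 5.93, 6.47, 6.40 and 6.40 on LysM+/cre arrays, against 6.60, 6.19 and 6.40 on LysM+/+ arrays. Its lowest value was on LysM+/cre array 1, and the difference of -0.10 ± 0.16 (SE, adjusted p = 0.831) became 0.025 without that array and 0.0040 without LysM+/+ array 1. Col4a2, with which it assembles into the ubiquitous type IV trimer, had 5.70, 5.86, 5.81 and 5.82 on LysM+/cre arrays, against 6.07, 5.73 and 5.81 on LysM+/+ arrays. The highest and the lowest array were the same for the pair, LysM+/+ array 1 and LysM+/cre array 1, and the Col4a2 difference was -0.07 ± 0.094 (SE, adjusted p = 0.784). Col4a6, a chain of smooth muscle and epithelial basement membranes, had 5.31, 5.06, 5.31 and 5.31 on LysM+/cre arrays, against 5.40, 5.31 and 5.43 on LysM+/+ arrays, the largest negative difference of the class at -0.14 ± 0.083 (SE, adjusted p = 0.562). Col4a5, its X-linked neighbour and trimer partner, had 4.99, 5.08, 5.14 and 4.88 on LysM+/cre arrays, against 5.05, 5.12 and 4.85 on LysM+/+ arrays, a difference of 0.02 ± 0.093 (SE, adjusted p = 0.956). Col4a3 and Col4a4, chains known from kidney and lung basement membranes, differed by 0.0064 and -0.0061. Col4a3, Col4a4 and Col4a5 did not reach the array median on any array.

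Type VI collagen forms beaded filaments at the border of cells and matrix from the chains of Col6a1, Col6a2 and Col6a3. Col6a1 had 7.09, 7.41, 6.91 and 7.28 on LysM+/cre arrays, against 7.34, 7.55 and 7.69 on LysM+/+ arrays. Only LysM+/cre array 2 reached into the control range, and the difference was -0.35 ± 0.14 (SE, unadjusted p = 0.0409, adjusted p = 0.423), or 0.783-fold. The second Col6a1 probe set differed by -0.15. When arrays were left out one at a time the Col6a1 difference lay between -0.45 and -0.26, but its unadjusted p stayed under 0.05 only without LysM+/+ array 1 (0.0283) or LysM+/cre array 2 (0.0196), and was 0.052 to 0.137 otherwise. With a fibroblast score as covariate, which did not overlap between the genotypes, the difference was 0.08 ± 0.22 (SE, limma unadjusted p = 0.728). Col6a2 had 6.15, 6.72, 6.36 and 6.58 on LysM+/cre arrays, against 6.62, 6.42 and 6.73 on LysM+/+ arrays, a difference of -0.14 ± 0.15 (SE, adjusted p = 0.739). Col6a3, the largest chain, had 5.58, 6.13, 5.78 and 5.78 on LysM+/cre arrays, against 5.78, 5.74 and 5.88 on LysM+/+ arrays, a difference of 0.01 ± 0.13 (SE, adjusted p = 0.973). Chains of 1 filament thus had estimates of different size, but no test of the difference between them was made. Among the minor type VI chains, Col6a4 had 4.80, 4.85, 4.83 and 4.83 on LysM+/cre arrays, against 4.41, 4.65 and 4.95 on LysM+/+ arrays. Its positive difference, 0.16 ± 0.12 (SE, adjusted p = 0.642), was the largest of the other collagens, but it was 0.025 without LysM+/+ array 1 and 0.30 without LysM+/+ array 3. Col6a5 and Col6a6 differed by 0.07 and -0.09.

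Col15a1, a multiplexin that tethers basement membranes of vessels and muscle to the interstitium, had the largest difference of the family. It had 5.82, 6.38, 6.60 and 6.57 on LysM+/cre arrays, against 6.97, 6.60 and 6.81 on LysM+/+ arrays, a difference of -0.45 ± 0.20 (SE, unadjusted p = 0.0616, adjusted p = 0.451). LysM+/cre array 3 and LysM+/+ array 2 had the same value, so the genotypes met at that value without crossing. Without LysM+/cre array 1 the difference was -0.28, and with a fibroblast score as covariate it was -0.20 ± 0.42 (SE, limma unadjusted p = 0.643). Col18a1, the other multiplexin and the precursor of endostatin, differed by -0.06.

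Of the 9 FACIT genes, whose products coat fibrils and link them to other matrix, 8 lay below 0. Col14a1 had 6.60, 6.78, 6.46 and 7.05 on LysM+/cre arrays, against 6.78, 7.67 and 6.33 on LysM+/+ arrays. Its estimate of -0.21 ± 0.31 (SE, adjusted p = 0.817) rests on LysM+/+ array 2, without which it was 0.17. Col9a2, a chain of cartilage type IX collagen, had 7.15, 7.23, 7.23 and 7.23 on LysM+/cre arrays, against 7.28, 7.23 and 7.23 on LysM+/+ arrays, with a difference of -0.04 ± 0.053 (SE, adjusted p = 0.813). Its value was identical on 5 of the 7 arrays. Col12a1 differed by -0.21, and without LysM+/+ array 3 by -0.38 (unadjusted p = 0.00454, adjusted p = 0.485). The other FACIT genes were Col20a1 (-0.21), Col9a3 (-0.08), Col9a1 (-0.08), Col16a1 (-0.06), Col22a1 (-0.014) and Col19a1 (0.02).

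Col23a1, a transmembrane collagen, had 6.26, 6.26, 6.06 and 6.26 on LysM+/cre arrays, against 6.44, 6.49 and 6.17 on LysM+/+ arrays, a difference of -0.15 ± 0.0997 (SE, adjusted p = 0.583). The transmembrane collagens Col13a1, Col17a1, which holds basal keratinocytes to their basement membrane, and Col25a1 differed by -0.07 to 0.02. The network formers Col8a1 and Col8a2 of vessel walls and Col10a1 of growth plates differed by -0.23, 0.07 and 0.0027. Col7a1, the anchoring fibril of skin, differed by -0.0063, and Col26a1 and Col28a1 by -0.06 and -0.09.

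Chains that can assemble with each other were compared array by array without regard to genotype. Col1a1 and Col1a2 varied together over the 7 arrays (Pearson's r = 0.926, exact permutation p = 0.0064, adjusted over 12 pairs 0.0762). Spearman's rho was 0.847 (exact permutation p = 0.0238, adjusted 0.0952). Without the arrays farthest from the Col1a1 median, LysM+/cre arrays 2 and 4, r was 0.925. The head-to-head genes Col4a1 and Col4a2 had r = 0.84 (exact permutation p = 0.0333, adjusted 0.133) and rho = 0.972 (exact permutation p = 0.0024, adjusted 0.0286), the only pair past the adjustment and only by rank. Without LysM+/cre array 1 and LysM+/+ array 2 their r was 0.982. Of the arrays kept, LysM+/+ array 3 and LysM+/cre arrays 3 and 4 shared 1 Col4a1 value (6.40). LysM+/+ array 1 was the highest for both genes, so this r rests much on it. The rho also includes these tied values. Col6a2 and Col6a3 had r = 0.814 (exact permutation p = 0.0214, adjusted 0.129) and rho = 0.852 (exact permutation p = 0.019, adjusted 0.0952), with r = 0.721 without LysM+/cre arrays 1 and 3. After removal of the genotype means these pairs had r of 0.942, 0.83 and 0.884. The other 9 pairs, in types IV, V, VI, VIII and IX, had r between -0.491 and 0.665 and none passed. Tests were two-sided over all 5040 pairings, and the pairs, which share the arrays' scaling, were picked as known trimer partners with the values already seen.

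**Figure D3:**
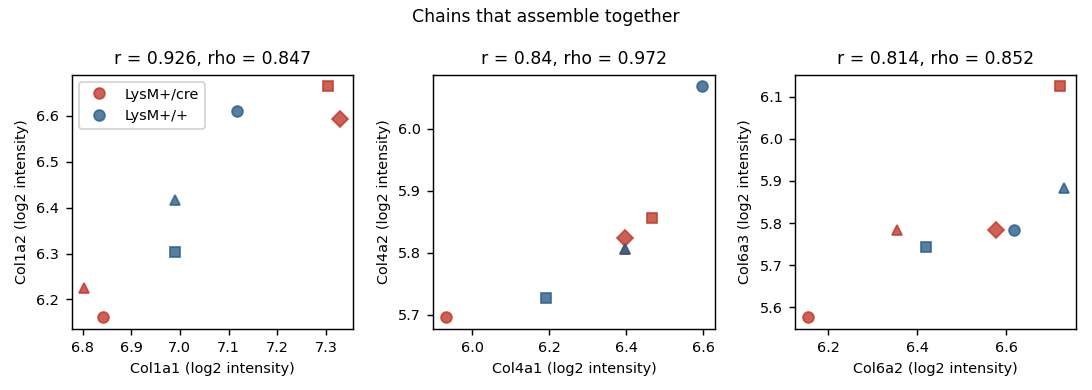
Log2 intensity of a chain against that of its trimer partner on each of 7 arrays, for Col1a1 and Col1a2, Col4a1 and Col4a2, and Col6a2 and Col6a3. Red is LysM+/cre and blue LysM+/+, marker shapes are replicates as circle, square, triangle and diamond, and r and rho stand above each panel. LysM+/cre array 1 is at or next to the low end in all 3 panels, and in the middle panel LysM+/cre array 3 and LysM+/+ array 3 coincide.

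Genes that modify, trim, bind and recognise collagens were measured on the same arrays. In the folding and hydroxylation list 17 of 19 genes were measured, with a median difference of 0.12, and at an unadjusted p under 0.05 there were 2 higher and 1 lower, where 6.56% of all genes were higher and 4.93% lower. P4hb, protein disulfide isomerase and the shared subunit of collagen prolyl 4-hydroxylase, had 10.58, 10.60, 10.46 and 10.50 on LysM+/cre arrays, against 10.23, 10.13 and 10.25 on LysM+/+ arrays, without overlap. Its difference was 0.33 ± 0.064 (SE, unadjusted p = 0.00137, adjusted p = 0.328). The prolyl 3-hydroxylase genes P3h1 and P3h2 differed by 0.26 ± 0.11 and -1.05 ± 0.43 (SE). Of 11 propeptide removal and cross-linking genes Loxl1, a lysyl oxidase, was the member at an unadjusted p under 0.05 (-0.20 ± 0.084 SE). No receptor or uptake gene reached that level, and the mannose receptor Mrc1, which takes up collagen fragments, differed by -0.42 ± 0.28 (SE), and the integrin chain Itgb1 by 0.10 ± 0.088 (SE).

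Of the 13 genes for proteins that sit on collagen fibrils, 5 were lower and 0 higher at an unadjusted p under 0.05 (all genes 4.93% lower and 6.56% higher), with a median difference of -0.54 and none past an adjusted p of 0.05. The other direction held 4 of the 13 estimates, among them the matrix glycoprotein genes Thbs1 (0.54, adjusted p = 0.451) and Fn1 (0.34, adjusted p = 0.548). With a fibroblast score free of list genes as covariate the counts were 0 lower and 1 higher, and the median was -0.087. The proteoglycan gene Dcn had 9.64, 10.45, 10.01 and 10.17 on LysM+/cre arrays, against 11.93, 10.94 and 11.47 on LysM+/+ arrays. Its genotypes did not overlap, and the difference was -1.38 ± 0.27 (SE, adjusted p = 0.328) with a 95% interval of -2.01 to -0.74. Tnxb, tenascin-X, which binds fibrils to each other, had 6.08, 6.66, 6.20 and 6.25 on LysM+/cre arrays, against 7.29, 7.31 and 6.94 on LysM+/+ arrays, a difference of -0.89 ± 0.16 (SE, adjusted p = 0.328). Next came Prelp (-0.46 ± 0.14 SE) and Lum (-0.78 ± 0.25 SE), small leucine-rich proteoglycans, and Thbs2 (-0.54). Of the 12 basement membrane partners 3 were lower and 0 higher at that level (all genes 4.93% lower and 6.56% higher), with a median of -0.43. With the same covariate 0 were lower and the median was -0.010. The 3 were the laminin genes Lamb2 (-0.81 ± 0.24 SE) and Lama2 (-0.50 ± 0.16 SE) and the perlecan gene Hspg2 (-0.42 ± 0.17 SE). Without LysM+/+ array 1 or LysM+/+ array 3 that count was 1, and without LysM+/+ array 2 it was 6. Whether the difference of such a gene exceeds that of a collagen was not tested, since these genes were picked with their values known.

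Markers of other cell types were examined as whole lists. Of 23 fibroblast and smooth muscle markers without collagens, 7 were lower and 1 higher at an unadjusted p under 0.05 (all genes 4.93% lower and 6.56% higher), and 20 lay below 0, with a median of -0.46. Their mean deviation was -0.30, 0.063, -0.32 and -0.15 on LysM+/cre arrays, against 0.27, 0.17 and 0.27 on LysM+/+ arrays, and the genotypes did not overlap. The list shares Dcn, Lum, Dpt and Postn with the fibril-binding list. Within LysM+/cre the order of that score, array 2, then 4, 1 and 3, put the same pair of arrays high as fibrillar collagens did, whereas between genotypes the fibrillar score overlapped. Endothelial markers had a median of -0.19 with 9 of 10 below 0 and 0 at an unadjusted p under 0.05. Epithelial markers had a median of -0.18 with 9 of 10 below 0, and all 6 neutrophil markers lay above 0 with a median of 0.78, led by Mmp8, a neutrophil collagenase, at 1.79 (adjusted p = 0.496). The mean deviation of neutrophil markers was -0.54, 0.60, 1.75 and -0.28 on LysM+/cre arrays, against 0.36, -1.69 and -0.19 on LysM+/+ arrays, so the genotypes overlapped. Enteric glia markers had a median of -0.06 and T, B and NK cell markers of -0.013, and none of the epithelial, neutrophil, glial and lymphocyte markers reached an unadjusted p under 0.05. With the fibroblast score as covariate, 5 collagens had an unadjusted p under 0.05 as higher with cre, against 2.82% of all genes, and 1, Col22a1, as lower (-0.35 ± 0.13 SE), against 2.08%. The 5 were Col3a1 (0.78 ± 0.26 SE), Col1a1 (0.58 ± 0.21), Col1a2 (0.53 ± 0.18), Col6a3 (0.48 ± 0.16) and Col5a1 (0.40 ± 0.15), each with an adjusted p of 1. Because the score did not overlap between genotypes, this fit separates genotype from score only by extrapolation. A gene that rises with the score within genotypes is thereby given a higher estimate with cre. The cells were gated on CD45, CD11b and CD64, and how far the gate removed stromal cells was not tested. All 23 fibroblast and smooth muscle markers lay above the array median on at least 3 arrays, as did 12876 of all 22180 genes. In these samples fewer cells of a type and less RNA per cell cannot be told apart, and the part of stromal RNA in the collagen values was not tested.

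**Figure D4:**
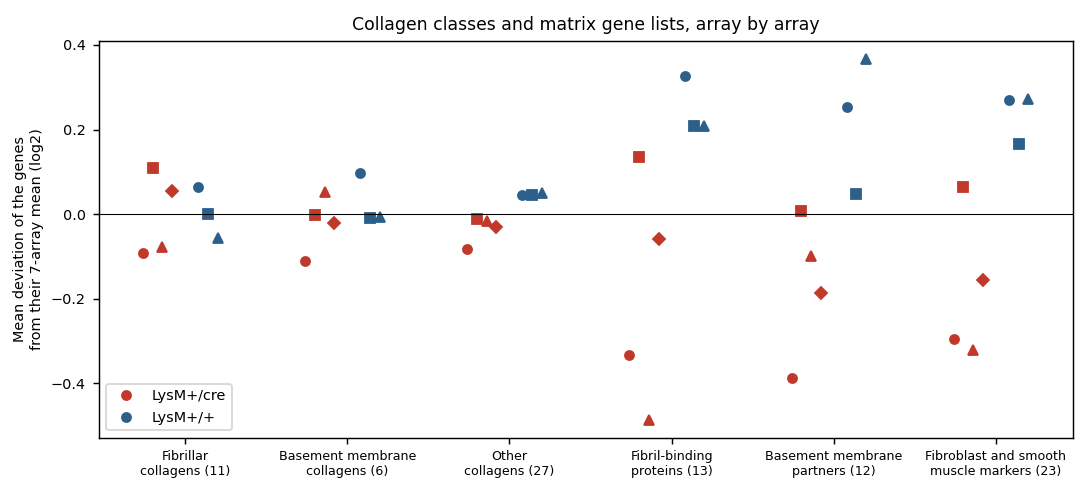
Mean deviation of the genes of each list from their own 7-array means, in log2 units, on each LysM+/cre (red) and LysM+/+ array (blue), with the number of genes in brackets and replicates 1 to 4 as circle, square, triangle and diamond. The fibrillar and basement membrane collagens overlap between genotypes, while the fibroblast and smooth muscle markers lie at -0.32 to 0.063 on LysM+/cre arrays and at 0.17 to 0.27 on LysM+/+ arrays. The other collagens, the fibril-binding proteins and the basement membrane partners do not overlap either. Their highest LysM+/cre values are -0.012, 0.13 and 0.0065, and their lowest LysM+/+ values 0.045, 0.21 and 0.048.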

How the data were processed

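The authors deposited log2 intensities per probe set, on a common scale across arrays, made with Expression Console, as the design text states; the submitters' processing notes also name Transcriptome Analysis Console. No version, summarisation method or background correction is stated there. Normalization between arrays hides shifts shared by all genes, and log2 differences of dim probe sets are often compressed. Levels of different probe sets were compared only to choose probe sets and members of highest mean, and with the array median.

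Of 41345 probe sets, 23521 had exactly 1 symbol in the platform annotation, 1814 several and 16010 none listed. A comparison with RefSeq (GRCm38.p6) by Entrez identifier changed 0 symbols. The 22180 genes were fitted in R 4.3.3 by limma 3.58.1 (lmFit, then eBayes), with no covariate, two-sided, and Benjamini-Hochberg over all genes. The procedure was tested on simulated data with changes larger than any collagen difference found here. That test does not cover differences of the size seen in collagens. The design text states that there were no technical replicates and leaves pooling of mice unstated, so p-values measure only the spread between these samples. Members and lists were chosen with earlier results of these data known, so counts and medians over them carry no test. Values are given for the 5 fibrillar, 4 basement membrane and 6 other members of highest mean, members at an unadjusted p under 0.05, and the largest difference in each direction per class; Col6a3, Col12a1 and Col22a1 were added after their values were seen. From each pathway list up to 4 members of smallest p under 0.05 are named, otherwise the 2 of highest mean; Thbs1, Thbs2, Fn1 and the named marker genes were added after their values were seen. Alternatives were other scalings, a dim filter, probe set averaging, other variance models, array weights, a fibroblast score covariate, a replicate block, and omission of single arrays. Figures used matplotlib 3.10.9.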

Additional observations from a re-analysis of the deposited data

Results flagged for a closer look

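Of the collagens given array by array, 16 were screened (Col6a3, added later, was not), and in 5 of them 1 of the 4 LysM+/cre arrays stood apart from the others by Dixon's criterion at the 95% level, which chance meets in about 1 in 20 groups. Col4a1 was low on LysM+/cre array 1 at 5.93, and Col9a2 was low there at 7.15. Col27a1 was high on LysM+/cre array 1 at 6.61. Col4a6 was low on LysM+/cre array 2 at 5.06 and Col23a1 was low on LysM+/cre array 3 at 6.06. In Col4a6, Col9a2 and Col23a1 the other 3 LysM+/cre arrays had the same value to the last deposited digit, so that any departure meets the criterion. In Col4a1 and Col27a1, 2 of the other 3 LysM+/cre arrays shared a value. The rate of 1 in 20 is for values without ties.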

How the results depend on the processing

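No collagen passed an adjusted p of 0.05 under any alternative run, each array left out included. The lower count of 1 at an unadjusted p, Col6a1, became 0 with array medians set equal, with probe sets averaged, without moderation, with array weights and with the replicate block, and 0 to 2 when arrays were left out. The 2 were Col12a1 and Col23a1 without LysM+/+ array 3 and Col15a1 and Col25a1 without LysM+/cre array 3. The higher count was 0 to 2 then, with Col6a4 and Col6a5 without LysM+/+ array 3, and 5 with the fibroblast score as covariate. The number below 0 was 27 to 33 when arrays were left out. With that covariate the median of the other collagens was -0.092, Col1a2 turned to 0.53, Col4a1 to 0.29, Col4a2 to 0.091, Col4a5 to -0.044, Col5a1 to 0.40, Col6a1 to 0.080, Col6a2 to 0.42 and Col9a2 to 0.0083. Leaving out arrays gave both signs for Col1a1 (-0.049 to 0.13), Col1a2 (-0.12 to 0.052), Col4a1 (-0.20 to 0.025), Col4a2 (-0.14 to 0.029), Col4a5 (-0.061 to 0.075), Col5a1 (-0.18 to 0.0076) and Col14a1 (-0.51 to 0.17). The cause of these changes was not tested. The fibroblast score did not overlap between the genotypes, so fits with it separate genotype from score only by extrapolation.

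With a fibroblast score free of list genes as covariate, the folding list had a median of 0.19, the cross-linking list -0.011 with 2 lower, the fibril-binding list -0.087 with 0 lower and 1 higher, and the basement membrane partners -0.010 with 0 lower. When arrays were left out, fibril-binding genes had 4 to 7 lower and 0 to 1 higher, basement membrane partners 1 to 6 lower, cross-linking genes 0 to 1 lower, and folding genes 0 to 1 lower and 1 to 2 higher. Deviations showed no clear pairing by replicate number (correlations -0.115, 0.121 and 0.103, and not every array correlated best with its own number). So few pairs cannot settle whether samples were paired. The replicate block, which takes no information from LysM+/cre array 4, left the adjusted count at 0 and turned Col1a1 to -0.049.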

Other observations

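Many collagen values were identical on several arrays to the last deposited digit. At least 3 of the 7 arrays shared a value in 21 of 44 collagens (47.7%), against 6664 of all 22180 genes. At least 5 arrays shared one in Col7a1, Col9a2, Col11a1, Col16a1 and Col20a1 (11.4% of collagens, against 1104 genes, or 5.0%). In Col5a2 all 3 LysM+/+ arrays had 5.66, and in 8 collagens, Col15a1 and Col27a1 among them, the ranges of the genotypes met only at such a shared value. How many of all genes did so was not counted. What makes arrays equal was not tested.

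The probe sets of 11 collagens lay above the array median on fewer than 3 arrays, among them Col4a3, Col4a4, Col4a5, Col6a4 and Col6a5. Their median difference was 0.0064. The other 33 of the 44 collagens lay above the array median on at least 3 arrays, as did 12876 of all 22180 genes.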
